A study of Mus musculus with 6 samples.

Results

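The genes described here encode the matrix metalloproteinases (MMPs), the ADAMTS proteases and their ADAMTS-like relatives, and the tissue inhibitors of metalloproteinases (TIMPs), in engineered mouse skeletal muscle exposed to tumour necrosis factor alpha (TNF-alpha). They are all rows of the deposited gene table whose symbol begins with Mmp, Adamts or Adamtsl followed by a digit, or is one of Timp1 to Timp4. This gave 51 of 24421 genes, of which 23 encode MMPs, 19 ADAMTS proteases, 5 ADAMTS-like proteins and 4 TIMPs. C2C12, a clonal mouse myoblast line that forms contractile myotubes in low serum, was cast in type I collagen between titanium artificial tendons and differentiated in horse serum. Each of 2 groups had 3 constructs, one group given TNF-alpha at 100 ng/mL for 72 h and the other the vehicle, phosphate-buffered saline, sampled at the same time. The labels call the constructs biological replicates 1 to 3 without naming the cell batch of each, so every p-value here rests on the spread among 3 constructs a group, which may be technical. Total counts per library ran from 81713008 to 93533748.

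MMPs are zinc-dependent proteases that cleave collagens and other proteins of the extracellular matrix. Most are secreted as inactive proenzymes, some are anchored in the cell membrane, and most are held in check by TIMPs, which bind their active sites. ADAMTS proteases cleave proteoglycans, procollagens and other matrix proteins, whereas the ADAMTS-like proteins lack the protease domain and bind the fibrillin microfibrils that hold growth factors. In skeletal muscle these enzymes are known for opening the basal lamina during regeneration, and inflammatory cytokines are well-known inducers of several of them in connective tissue. Transcript levels say nothing of whether a proenzyme was activated.

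Of the 51 genes, 10 MMP genes lie side by side on mouse chromosome 9, and 4 of them rose steeply with TNF-alpha. The 120 bases before a RefSeq transcription start of these 4 (Mmp13, Mmp12, Mmp3 and Mmp10) are printed here with those of 2 neighbours that had lower counts with TNF-alpha, Mmp8 and Mmp7. The fall of Mmp8 lost its call under some of the alternatives described below, and Mmp7 had too few counts to test. The stretches are all on the plus strand of GRCm38.p6 and read 5′ to 3′. Capitals mark matches to the AP-1 motif TGANTCA, which dimers of Fos and Jun family proteins bind, and to the TATA box TATAAA.
Mmp13 (chr9:7272394-7272513): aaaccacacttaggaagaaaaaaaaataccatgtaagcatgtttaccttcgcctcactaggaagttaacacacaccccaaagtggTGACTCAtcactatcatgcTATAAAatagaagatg
Mmp12 (chr9:7347254-7347373): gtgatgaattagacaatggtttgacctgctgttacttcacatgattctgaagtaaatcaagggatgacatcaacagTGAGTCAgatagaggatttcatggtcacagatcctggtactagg
Mmp3 (chr9:7445702-7445821): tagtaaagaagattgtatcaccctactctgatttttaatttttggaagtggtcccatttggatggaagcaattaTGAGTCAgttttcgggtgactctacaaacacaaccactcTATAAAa
Mmp10 (chr9:7502222-7502341): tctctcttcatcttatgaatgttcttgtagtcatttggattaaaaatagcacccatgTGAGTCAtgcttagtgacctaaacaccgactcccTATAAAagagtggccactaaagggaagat
Mmp8 (chr9:7558309-7558428): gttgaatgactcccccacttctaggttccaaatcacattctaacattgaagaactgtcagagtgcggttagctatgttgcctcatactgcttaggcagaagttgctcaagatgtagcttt
Mmp7 (chr9:7691970-7692089): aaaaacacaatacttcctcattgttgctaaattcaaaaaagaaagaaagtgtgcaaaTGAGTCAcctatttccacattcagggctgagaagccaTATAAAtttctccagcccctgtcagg
For Mmp12 RefSeq also has a window beside the start of the gene model, with no such match, and the stretch printed ends 2993 bases away from that start. Mmp7 also has an additional window without a match. For both genes the window printed was chosen because it holds the AP-1 match. In the 250 bases before a start, searched on both strands, AP-1 was matched for 8 of the 36 members that the RefSeq table holds. All 8 lie in the chromosome 9 group, and its other 2 genes, Mmp8 and Mmp27, had none. Of the 9 members with a window that rose, 4 had a match, against 0 of 11 that fell, 0 of 7 that did not pass the test and 4 of 9 with too few counts to test. A member counted as matched if any of its windows held the motif, and Mmp12 matched only in the window away from its gene start. Of all 32851 windows of the same length in the table, 6.75% held the AP-1 motif. That share counts windows and not genes, so it is not the same measure as the counts of members. TATAAA was found for 10 members and in 12.4% of windows, and the kappaB motif bound by NF-kappaB proteins for Mmp25 and in 3.9% of windows. The 15 members without a window, Mmp2, Mmp9 and Adamts4 among them, were not searched. A match describes these letters and does not show that a protein bound there.

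TNF-alpha constructs held far more transcript of a few secreted MMPs than vehicle constructs, and over all tested members more genes fell than rose. Of the 51 genes, 41 had enough counts to be tested with edgeR's quasi-likelihood test, with a Benjamini-Hochberg adjustment over all 15792 genes tested and a threshold of 0.05. Among these 41 tested members, 13 rose (31.7%), 18 fell (43.9%) and 10 did not pass. Among all tested genes 27.6% rose and 27.9% fell. Changes of at least 2-fold were found for 9 members that rose and 13 that fell, where 8.47% and 9.46% of all tested genes did so. The ranges of the groups did not overlap for 30 of the 41 tested members (73.2%) and for 64.5% of all tested genes. The median log2 fold change was -0.36 over the tested members and 0.00481 over all tested genes. The 5 largest rises were all of MMP genes, and the plot of changes by role shows risen beside fallen genes among collagenases, gelatinases, ADAMTS-like genes, TIMPs and several kinds of ADAMTS protease. In bulk RNA, fewer cells of a type and less RNA per cell cannot be told apart.

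**Figure D1:**
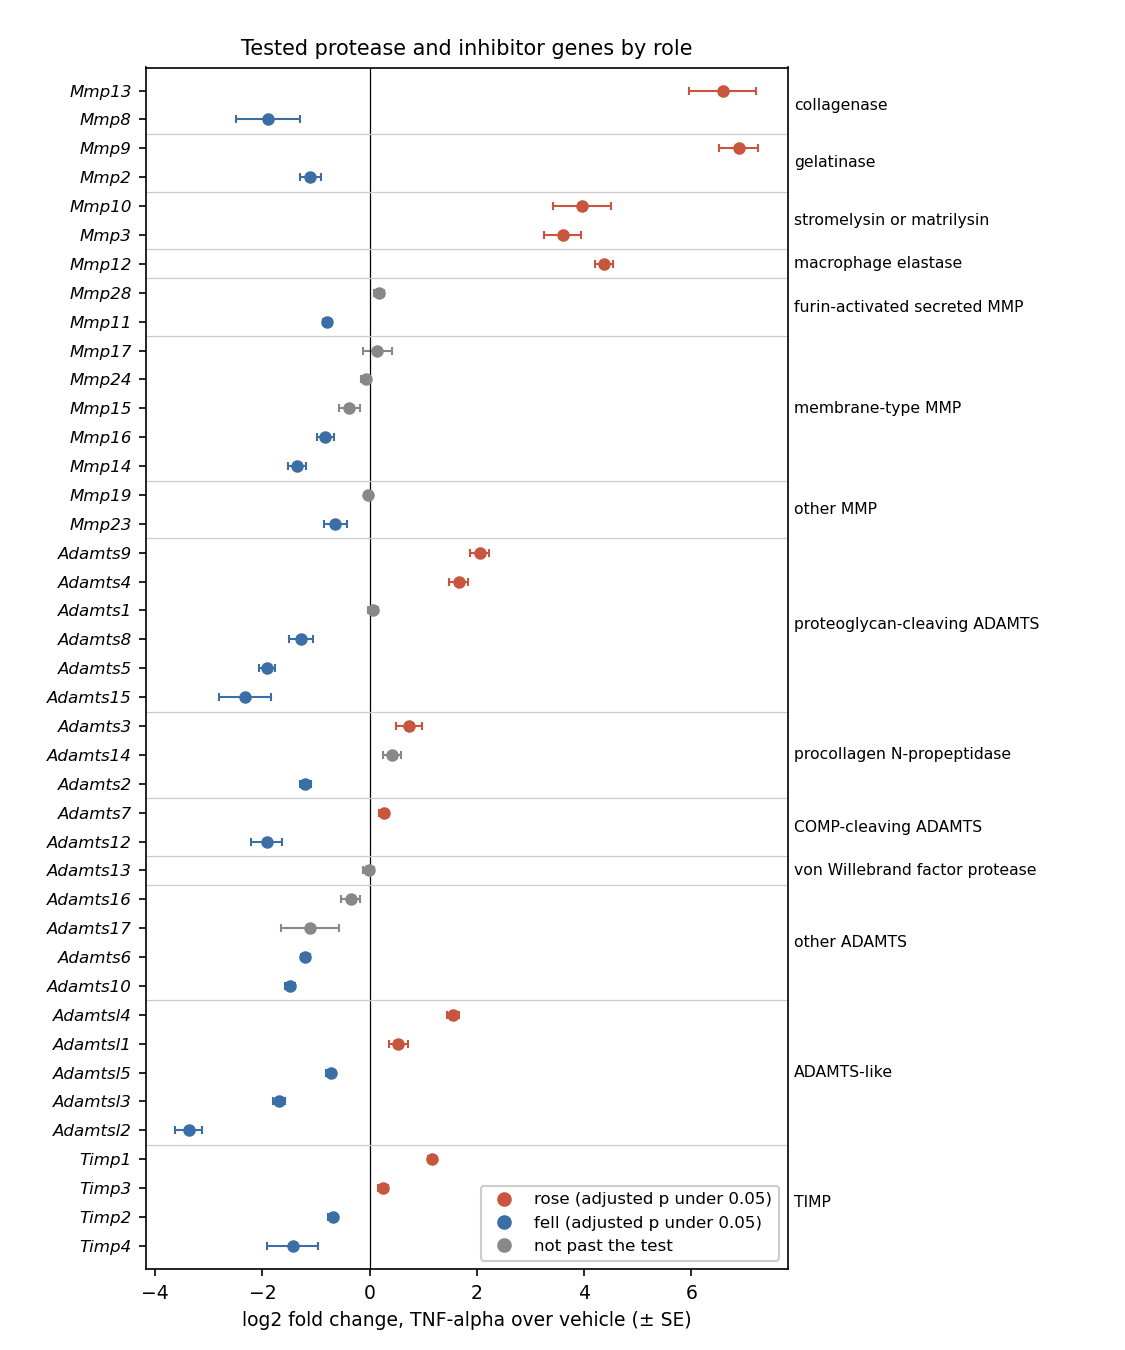
The horizontal axis gives the log2 fold change of TNF-alpha over vehicle for each of the 41 tested genes (point) with its standard error (bar), grouped by role. Mmp9 and Mmp13 stand highest at 6.89 and 6.59, Adamtsl2 is lowest at -3.38, and collagenases, gelatinases and TIMPs each hold risen and fallen genes.

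Levels are given in CPM, a gene's count relative to the TMM-scaled total of its library, in the order of constructs 1, 2 and 3. Among the collagenases, which cut fibrillar collagen, Mmp13 and Mmp8 moved in opposite directions. Mmp13, collagenase 3 (GRCm38 chromosome 9, 7272514 to 7283331), stood at 3.37, 2.32 and 0.880 CPM in vehicle and at 119, 310 and 198 CPM with TNF-alpha. The groups were far apart, and the change was 6.59 ± 0.62 on the log2 scale (SE; adjusted p = 3.36e-04). Mmp8, the neutrophil collagenase, stood at 3.22, 2.38 and 1.26 CPM in vehicle and at 0.171, 0.945 and 0.728 CPM with TNF-alpha. The groups did not overlap, and Mmp8 fell, with a log2 fold change of -1.90 ± 0.59 (adjusted p = 0.0311). This fall lost its call without vehicle 1, vehicle 2 or TNF-alpha 3 (adjusted p = 0.0956, 0.0687 and 0.0756) and with no filter on low counts (0.0627), and over 15 alternatives its adjusted p ranged from 0.000733 to 0.0989. Mmp1a and Mmp1b, the mouse counterparts of interstitial collagenase, had 0 counts in each vehicle library. With TNF-alpha they had 4, 8 and 2 counts and 2, 10 and 2 counts, too few to test.

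The gelatinases, which degrade denatured collagen and basement membrane collagen, also parted. Mmp9, gelatinase B (chromosome 2, 164940780 to 164955850), went from 3.54, 2.00 and 2.29 CPM to 208, 351 and 364 CPM. This was the largest log2 change of any tested member, 6.89 ± 0.36 (adjusted p = 3.12e-05). Mmp2, gelatinase A (chromosome 8, 92827291 to 92853420), had the highest mean level per length of the 51 genes in vehicle, 528 ± 136 CPM per kb (SD, n = 3). Its lead over Timp2, at 427 ± 24.8 CPM per kb, was within that spread. In CPM Mmp2 stood at 2069, 2020 and 1254 in vehicle. With TNF-alpha it stood at 709, 872 and 900 CPM, a log2 fold change of -1.11 ± 0.20 (adjusted p = 0.00284). Vehicle 3 lay well under the other 2 vehicle libraries and still above every TNF-alpha library. Despite these opposite changes, Mmp2 kept the higher mean level per kilobase of exon of the pair, 245 ± 30.5 against 86.9 ± 24.5 CPM per kb with TNF-alpha (SD, n = 3).

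Stromelysins 1 and 2, which cleave proteoglycans and other non-collagen proteins and activate other MMPs, both rose. Mmp3, stromelysin 1 (chromosome 9, 7445822 to 7455975), went from 78.7, 63.7 and 42.9 CPM to 496, 922 and 829 CPM (log2 fold change 3.60 ± 0.34, adjusted p = 3.45e-04). Mmp10, stromelysin 2, went from 3.63, 1.67 and 5.59 CPM to 33.9, 82.5 and 52.3 CPM (3.95 ± 0.54, adjusted p = 0.0016). TNF-alpha 1 was the lowest TNF-alpha library for both, as it was for Mmp9 and Mmp13, and it still lay above every vehicle library. The exons of Mmp3 and Mmp10 share a run of 104 identical bases and 140 words of 50 bases, 8.37% of those of Mmp10, and reads from such stretches could be split between them. Matrilysin, Mmp7, had 7, 11 and 10 counts in vehicle and 0 in each TNF-alpha library. Against a floor of 3 counts per library this is at least 3.01-fold lower, without a test.

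Mmp12, macrophage elastase (chromosome 9, 7344381 to 7369499), had the smallest standard error of the 5 steeply risen genes. It went from 0.865, 0.790 and 0.555 CPM to 15.5, 14.8 and 15.4 CPM, a log2 fold change of 4.37 ± 0.16 (adjusted p = 3.32e-07). Macrophages are its textbook source, and some macrophage and leukocyte markers moved with it. Of 6 such markers 4 could be tested, and 3 rose, the lipopolysaccharide co-receptor Cd14 (log2 fold change 3.06), the lysosomal protein Cd68 (2.04) and the macrophage growth factor receptor Csf1r (2.54, from 0.246 ± 0.0283 to 1.44 ± 0.252 CPM, SD, n = 3). Itgam, with 14 to 36.75 counts per library, did not pass (-0.58 ± 0.41). The summed level of the 6 markers was 14.1 to 14.9 CPM in vehicle and 88.9 to 105 CPM with TNF-alpha. Most of it was Cd14, with means of 9.24 and 76.8 CPM. The remaining 2 markers were near 0, with at most 4 counts of Ptprc (CD45) and 2 of Adgre1 (F4/80) in any library, and Ptprc was at 0 in all 3 TNF-alpha libraries. S100a8, listed as a neutrophil marker, rose as well, by 5.61 on the log2 scale. The other markers of that list were scarce, with S100a9 at 0 in every library, at most 2 counts of Mpo and at most 7 of Elane.

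**Figure D2:**
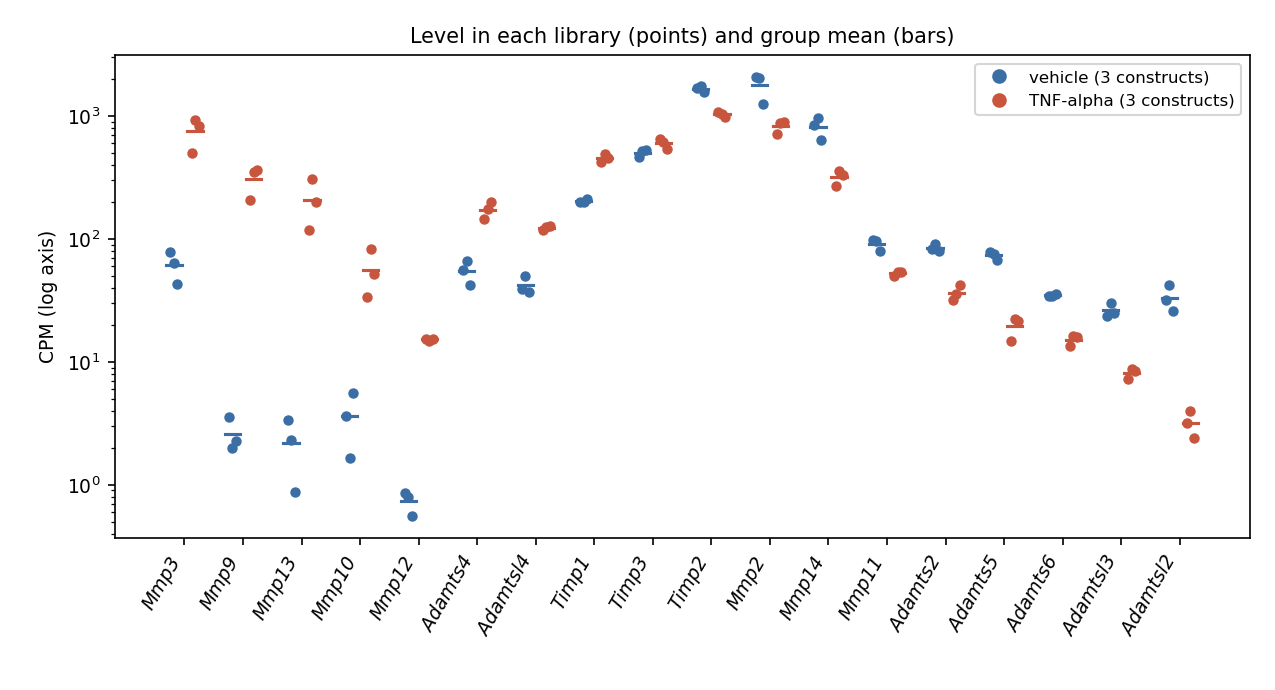
CPM on a log axis for 18 genes, with 1 point per construct (blue vehicle, red TNF-alpha) and a bar at each group mean of 3. The genes shown were picked from members that passed the test. Their groups are all separate, by about 2 orders of magnitude for Mmp9 and Mmp13. For Timp3 the gap is narrow, with TNF-alpha 3 just above the highest vehicle library. Groups did not overlap for 73.2% of the tested members and 64.5% of all tested genes.

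Of the membrane-type MMPs, which act at the cell surface, none rose. Mmp14, which activates the Mmp2 proenzyme together with Timp2 (chromosome 14, 54431612 to 54445364), went from 839, 969 and 637 CPM to 267, 358 and 333 CPM. Its log2 fold change was -1.35 ± 0.17 (adjusted p = 4.59e-04), and vehicle 3 was again the lowest vehicle library. Mmp16 fell too, by 0.83 ± 0.16 (adjusted p = 0.00202), from a mean of 8.28 to 4.66 CPM. Mmp15 stood at 64.1, 93.9 and 77.8 CPM in vehicle and at 45.4, 66.5 and 68.8 CPM with TNF-alpha, with overlapping groups and no call (adjusted p = 0.143). Mmp17 (0.14 ± 0.27) and Mmp24 (-0.07 ± 0.08) did not pass, and Mmp25 had too few counts.

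Among the secreted MMPs that furin activates inside the cell, Mmp11, stromelysin 3, went from 97.3, 96.7 and 80.5 CPM to 50.3, 54.2 and 53.6 CPM. It fell, with a log2 fold change of -0.80 ± 0.08 (adjusted p = 6.56e-05). Mmp28, epilysin, stood at 14.3, 14.5 and 16.6 CPM and at 16.1, 17.2 and 18.1 CPM, and did not pass (adjusted p = 0.127). Mmp19, in the remaining group, had nearly equal levels of 41.6, 42.1 and 40.8 CPM in vehicle and 37.8, 43.7 and 40.8 CPM with TNF-alpha. Its log2 fold change was -0.03 ± 0.07. Mmp19 shares 22.3% of its exon bases with Tmem198b on the other strand, and whether counting used strand is not given in the sources used here. Mmp23 went from 1.63, 1.96 and 1.78 CPM to 0.867, 1.34 and 1.25 CPM and fell by 0.64 ± 0.21 (adjusted p = 0.0301). Its call was lost without vehicle 2, vehicle 3, TNF-alpha 1 or TNF-alpha 3 (adjusted p = 0.0908, 0.0561, 0.0754 and 0.0552), with a range of 0.0233 to 0.0908 over the alternatives. Mmp20, Mmp21 and Mmp25 had at most 6 counts in any library, and Mmp27 had 22, 24 and 8 counts in vehicle and 6, 6 and 9 with TNF-alpha.

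The chromosome 9 MMP group spans 427 kb, from 7272514 to 7699585, with 10 MMP genes and 0 other protein-coding genes of the table between them. Read from its start, the order is Mmp13, Mmp12, Mmp1b, Mmp3, Mmp1a, Mmp10, Mmp8, Mmp27, Mmp20 and Mmp7. The first 6 were all higher with TNF-alpha, as tested rises for 4 of them and as a few counts against 0 for Mmp1a and Mmp1b. After Mmp10 the pattern changed, with a fall for Mmp8, lower counts of Mmp7 and few, overlapping counts of Mmp27 and Mmp20, these 3 untested. Mmp12 and Mmp1b run in opposite directions and share 157 exon bases, so part of the few Mmp1b counts could be Mmp12 reads if strand was not used. Of the 7 neighbouring genes within 500 kb, 2 rose, 1 fell and 4 did not pass. The shares over all tested genes were 27.6% that rose and 27.9% that fell. Dync2h1 (-0.08), Dcun1d5 (0.02), Birc2 (0.05) and Cep126 (-0.53) did not pass, Tmem123 fell by 0.86 (adjusted p = 2.00e-04), and Yap1 rose by 0.32 (adjusted p = 0.00146). Birc3, a known NF-kappaB target that encodes an apoptosis inhibitor, rose by 1.54 on the log2 scale (adjusted p = 1.88e-04), where the 4 risen MMP genes of the group changed by 3.60 to 6.59.

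**Figure D3:**
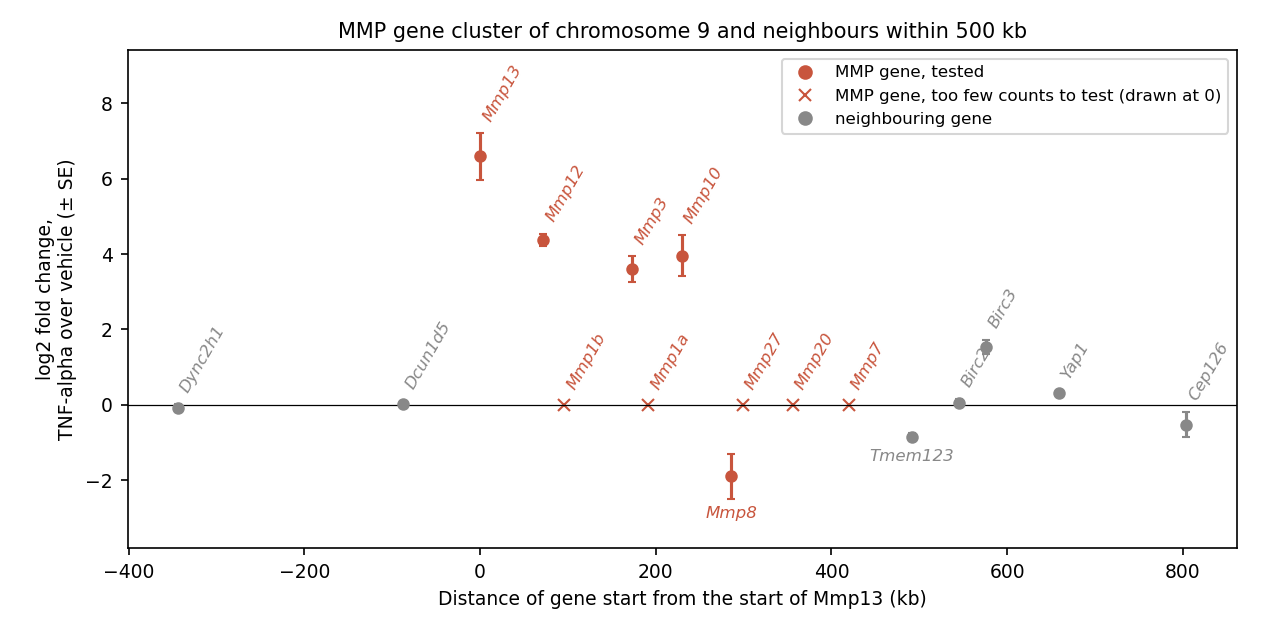
Log2 fold change (± SE) against the distance of each gene's start from the start of Mmp13 in kb, for the 10 MMP genes (red, crosses at 0 where counts were too few to test) and 7 neighbours (grey). Mmp13, Mmp12, Mmp3 and Mmp10 lie between 3.60 and 6.59, Mmp8 lies at -1.90, and the neighbours lie between -0.86 and 1.54.

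ADAMTS proteases that cleave aggrecan, versican and related proteoglycans went in either direction, with 2 rises, 3 falls and 1 without a call among 6 tested. Adamts4, aggrecanase 1 (chromosome 1, 171250421 to 171260637), went from 56.1, 66.2 and 42.1 CPM to 145, 175 and 198 CPM (log2 fold change 1.66 ± 0.19, adjusted p = 3.38e-04). Adamts5, aggrecanase 2 (chromosome 16, 85856173 to 85901828), moved the opposite way, from 78.0, 75.5 and 67.5 CPM to 14.8, 22.3 and 21.6 CPM. Its log2 fold change was -1.92 ± 0.16 (adjusted p = 5.39e-05). In vehicle Adamts5 had the lower mean level per length of the pair (6.83 ± 0.511 against 11.4 ± 2.51 CPM per kb), and with TNF-alpha the gap widened to 1.81 ± 0.385 against 35.9 ± 5.61 CPM per kb (SD, n = 3). Adamts1, which lies beside Adamts5 on chromosome 16, stood at 101, 99.3 and 80.2 CPM in vehicle and at 100, 96.6 and 95 CPM with TNF-alpha. It did not pass (0.06 ± 0.09).

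The other proteases of this kind were scarce. Adamts9 went from 0.733, 0.600 and 0.687 CPM to 2.59, 3.02 and 2.75 CPM and rose by 2.05 ± 0.18 (adjusted p = 2.32e-05). Adamts8 went from 1.56, 1.15 and 1.26 CPM to 0.589, 0.478 and 0.561 CPM and fell by 1.28 ± 0.22 (adjusted p = 0.00127). Adamts15 went from 3.65, 2.40 and 3.77 CPM to 0.621, 0.233 and 1.10 CPM and fell by 2.33 ± 0.48 (adjusted p = 0.0052). The groups of all 3 genes stayed apart. The log2 fold change of Adamts15 was -2.93 without TNF-alpha 3, its highest treated library, and -1.94 without TNF-alpha 2, its lowest. Over 15 alternatives its adjusted p was at most 0.0255. Adamts20 had 3 to 8 counts per library and was not tested.

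The procollagen N-propeptidases, which trim fibrillar procollagens before fibrils form, did not move as 1 group. Adamts2 (chromosome 11, 50602084 to 50807573) went from 82.4, 90.5 and 80.0 CPM to 32.1, 35.6 and 42.0 CPM and fell by 1.20 ± 0.10 (adjusted p = 2.31e-05). Adamts14 stood at 93.6, 118 and 145 CPM in vehicle and at 137, 169 and 171 CPM with TNF-alpha. These groups overlapped through vehicle 3, and the difference of 0.42 ± 0.17 did not pass (adjusted p = 0.0682). Without vehicle 3 the adjusted p of Adamts14 was 0.0087, and over the alternatives it ranged from 0.00369 to 0.181. Adamts3 rose by 0.73 ± 0.25 at a mean of at most 1.24 CPM (adjusted p = 0.032). Its call was lost without vehicle 1, vehicle 2, TNF-alpha 1 or TNF-alpha 3 (adjusted p = 0.0991, 0.0983, 0.0940 and 0.0847), with a range of 0.0134 to 0.0991.

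Adamts7 and Adamts12, which cleave cartilage oligomeric matrix protein (COMP), parted as well. Adamts7, which had the highest mean level per length of the ADAMTS genes in vehicle, stood at 193, 203 and 173 CPM in vehicle and at 206, 240 and 234 CPM with TNF-alpha. It rose by 0.26 ± 0.08 (adjusted p = 0.029). With TNF-alpha its level of 36.1 ± 2.95 CPM per kb did not differ from that of Adamts4 beyond their spread. The call was lost without vehicle 1, vehicle 3, TNF-alpha 2 or TNF-alpha 3 (adjusted p = 0.0612, 0.100, 0.107 and 0.108), with a range of 0.0104 to 0.108. Adamts12 went from 1.75, 2.33 and 1.74 CPM to 0.310, 0.595 and 0.633 CPM and fell by 1.92 ± 0.29 (adjusted p = 5.54e-04).

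Adamts6 and Adamts10, proteases tied to fibrillin microfibrils, both fell. Adamts6 went from 34.4, 34.5 and 35.6 CPM to 13.5, 16.2 and 15.9 CPM (log2 fold change -1.20 ± 0.08, adjusted p = 6.97e-06). Adamts10 went from 23.1, 22.6 and 22.6 CPM to 7.08, 8.87 and 8.40 CPM (-1.49 ± 0.10, adjusted p = 5.67e-06). Neither gene's groups came near each other. Adamts13, which cleaves von Willebrand factor, stood at 8.22, 7.83 and 8.75 CPM and at 8.75, 8.18 and 7.62 CPM, with a difference of -0.01 ± 0.10. Adamts16 (-0.36 ± 0.18) did not pass. Nor did Adamts17 (-1.11 ± 0.54, adjusted p = 0.115), whose adjusted p was 0.0239 without vehicle 3, in a range of 0.0239 to 0.445 over 14 alternatives. Adamts18 had 2 counts in 1 library and Adamts19 was at 0 in all.

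All 5 ADAMTS-like genes passed the test, 2 upward and 3 downward. Adamtsl4 (chromosome 3, 95676201 to 95687917), whose protein binds fibrillin 1, went from 39.3, 50.2 and 36.7 CPM to 118, 125 and 127 CPM (log2 fold change 1.55 ± 0.11, adjusted p = 1.43e-05). Adamtsl2 (chromosome 2, 27079379 to 27108981), whose protein binds fibrillin and latent TGF-beta binding proteins, fell the furthest of the tested members. It went from 31.6, 42.4 and 25.7 CPM to 3.21, 3.95 and 2.42 CPM, a log2 fold change of -3.38 ± 0.25 (adjusted p = 3.88e-05). Adamtsl3 and Adamtsl5 fell as well, both in groups that did not overlap. Adamtsl3 went from 23.5, 30.1 and 25 CPM to 7.22, 8.71 and 8.39 CPM (-1.69 ± 0.12, adjusted p = 7.49e-06). Adamtsl5 went from 190, 203 and 226 CPM to 133, 113 and 129 CPM (-0.73 ± 0.09, adjusted p = 1.43e-04). Adamtsl1 rose by 0.53 ± 0.17 (adjusted p = 0.0321), though TNF-alpha 2 lay below vehicle 3. Its call was lost without vehicle 1, vehicle 2, TNF-alpha 1 or TNF-alpha 3 (adjusted p = 0.0805, 0.0791, 0.0935 and 0.0846) and with no filter on low counts (0.0538), with a range of 0.00237 to 0.0935.

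The 4 inhibitor genes split evenly. Timp1, an inducible inhibitor of most secreted MMPs (chromosome X, 20870166 to 20874735), went from 201, 199 and 211 CPM to 420, 492 and 455 CPM. It rose by 1.16 ± 0.07 on the log2 scale (adjusted p = 4.57e-06), and its replicates were close in both groups. Timp2, which both inhibits MMPs and helps Mmp14 activate Mmp2 (chromosome 11, 118301069 to 118355740), went from 1699, 1739 and 1556 CPM to 1072, 1035 and 981 CPM. It fell by 0.69 ± 0.08 (adjusted p = 9.73e-05).

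Timp3, which binds the matrix and also inhibits ADAMTS proteases and ADAM17, stood at 465, 519 and 529 CPM in vehicle and at 647, 610 and 539 CPM with TNF-alpha. It rose by 0.25 ± 0.09 (adjusted p = 0.0386), the smallest rise of the members that passed. The call was lost without vehicle 1, vehicle 2, TNF-alpha 1 or TNF-alpha 2 (adjusted p = 0.137, 0.0643, 0.106 and 0.0973) and with upper-quartile scaling (0.0642), in a range of 0.0139 to 0.137. Timp4 was scarce, at 0.342, 0.480 and 0.750 CPM and then 0.0856, 0.216 and 0.286 CPM, and fell by 1.44 ± 0.48 (adjusted p = 0.0295). Its call was lost without vehicle 2, vehicle 3, TNF-alpha 1 or TNF-alpha 2 (adjusted p = 0.0581, 0.104, 0.0742 and 0.0656), with a range of 0.0116 to 0.104. Timp1, Timp3 and Timp4 each lie within a synapsin gene on the other strand. Timp1 shares 0 exon bases with Syn1, Timp3 shares 1733 with Syn3 (91 to 151 counts per library) and Timp4 shares 90 with Syn2 (226 to 492 counts, against 8 to 69 for Timp4).

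Dividing each gene's CPM by its exon length shows how the makeup of each class shifted. Mmp2 made up 68.0% ± 2.73 of the summed MMP level per length in vehicle and 26.0% ± 3.76 with TNF-alpha (SD, n = 3). Mmp3 took its place as the leading MMP transcript, from 4.41% ± 0.529 to 42.6% ± 2.90. Mmp14 went from 17.8% ± 1.44 to 5.65% ± 0.635, while Mmp9 reached 8.95% ± 0.786 and Mmp13 7.85% ± 1.98 from 0.0976% and 0.101%. With the longest transcript as the length, the Mmp14 shares were 26.7% and 9.53%, and Mmp2 and Mmp3 still led vehicle and TNF-alpha at 60.7% and 39.1%. None of these shares overlapped between the groups, although an exact permutation test of 3 against 3 libraries cannot give a two-sided p under 0.1.

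The TIMP class turned over in the same measure. Timp2 went from 59.4% ± 2.21 to 31.1% ± 1.88 of the summed TIMP level per length and Timp1 from 31.9% ± 1.72 to 60.3% ± 2.68. Timp3 held 8.62% ± 0.657 and 8.65% ± 0.847, and 13.6% and 13.8% with the longest transcript as the length. In the ADAMTS class Adamts4 went from 10.4% ± 1.87 to 27.0% ± 1.91 and Adamts5 from 6.27% ± 0.458 to 1.35% ± 0.182, with Adamts7 at 27.7% ± 1.42 and 27.2% ± 0.831. Among ADAMTS-like genes Adamtsl5 went from 69.1% ± 3.96 to 43.9% ± 2.29 and Adamtsl4 from 15.8% ± 2.40 to 49.0% ± 2.78. Which of them led with TNF-alpha was not settled. In TNF-alpha 1 the shares of Adamtsl5 and Adamtsl4 were 46.2% and 46.1%. By the longest transcript the TNF-alpha means were 45.2% ± 2.08 and 45.5% ± 2.87.

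The summed levels moved far less than the makeup. MMP genes together stood at 772 ± 173 CPM per kb in vehicle and 965 ± 234 with TNF-alpha, with overlapping groups. TIMP genes stood at 719 ± 16.2 and 851 ± 37.9 CPM per kb, without overlap. The ratio of summed TIMP to summed MMP level was 0.825, 0.841 and 1.23 in vehicle and 1.18, 0.779 and 0.795 with TNF-alpha. These ranges overlap almost wholly, the high values coming from the libraries with the lowest MMP sums, vehicle 3 and TNF-alpha 1.

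**Figure D4:**
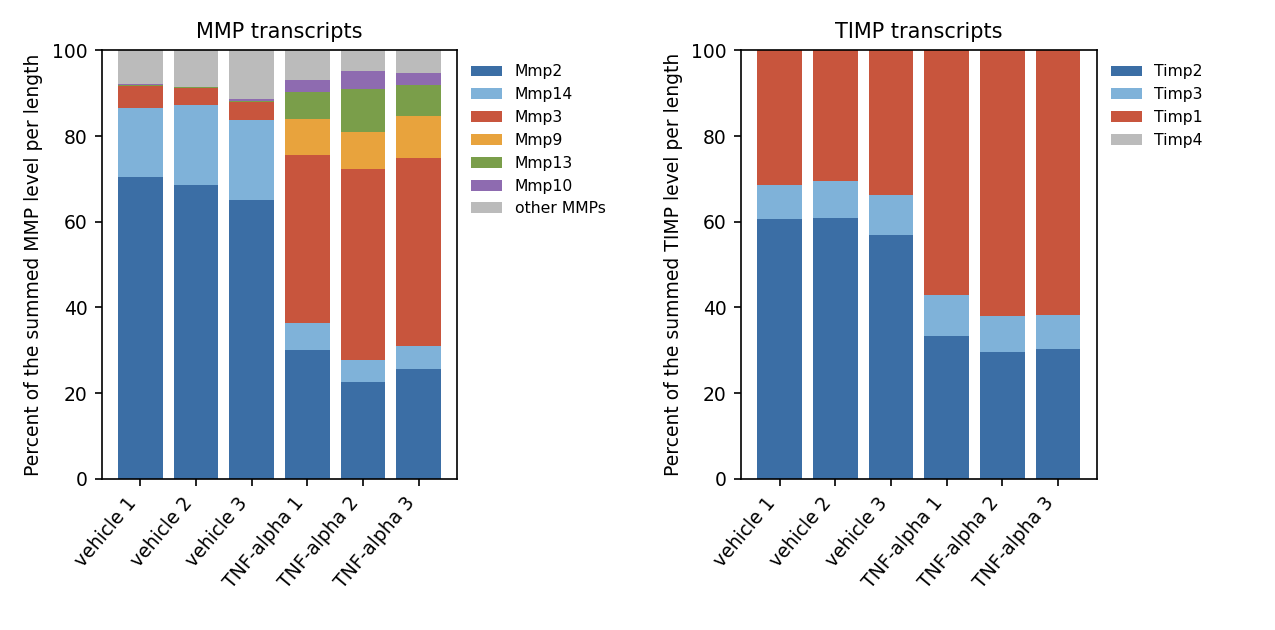
Each bar is 1 construct and shows the percent of the summed level per length (CPM per kb of exon) held by each gene, for MMP genes on the left and TIMP genes on the right. Mmp2 shrinks from a mean of 68.0% to 26.0% while Mmp3 grows to 42.6%, and Timp1 overtakes Timp2, in all 3 TNF-alpha libraries.

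Genes that work with these proteases were read from lists of their partners. For comparison, 27.6% of all tested genes rose and 27.9% fell. Of 14 tested genes for activation and surface regulation of MMPs, 7 rose, 3 fell and 4 did not pass, with a median log2 fold change of 0.35. Plat, tissue plasminogen activator, rose by 1.54 ± 0.10 and Itgav, the alpha v integrin, by 0.62 ± 0.07. Pcsk6, a proprotein convertase, fell by 2.96 ± 0.24 and Pcolce, which enhances procollagen C-proteinase, by 1.44 ± 0.08. Of 17 transcription factors known at MMP promoters, all of them tested, 13 rose, 1 fell and 3 did not pass (median 0.74). The AP-1 member Fosl1 rose by 2.78 ± 0.06, from 20.9 ± 0.867 to 143 ± 0.714 CPM (SD, n = 3), and Ets1 by 1.5 ± 0.07. Fos itself was the one that fell, by 1.06 ± 0.20.

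ADAM proteases, the membrane-bound relatives of ADAMTS enzymes, had 3 rises, 2 falls and 6 that did not pass among 11 tested (median 0.04). These calls were no more common than the 27.6% of all tested genes that rose and 27.9% that fell. Adam8 rose by 1.97 ± 0.12 and Adam17, the enzyme that sheds TNF-alpha from cells, by 0.48 ± 0.06, while Adam9 fell by 0.48 ± 0.06 and Adam19 by 0.69 ± 0.15. Of 6 tested astacin proteases and ADAMTS relatives, 0 rose, 4 fell and 2 did not pass (median -1.07), with Bmp1, the procollagen C-proteinase, down by 0.73 ± 0.06 and Thsd4 by 1.80 ± 0.21. Of 15 tested ADAMTS substrates, 4 rose, 10 fell and 1 did not pass (median -0.44). The proteoglycan Dcn, decorin, rose by 1.57 ± 0.11 from a mean of 2029 to 6022 CPM, and Bcan, brevican, rose by 1.11 ± 0.25 below 1 CPM. The microfibril protein Fbn1, fibrillin 1, fell by 0.88 ± 0.08 and Ltbp1, which tethers latent TGF-beta to fibrillin, by 0.94 ± 0.10. Acan, which encodes the aggrecan that Adamts4 and Adamts5 are named for, was at 0 in vehicle and had at most 6 counts with TNF-alpha.

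Marker genes were set beside these results, where 27.6% of all tested genes rose and 27.9% fell. All 7 myotube markers were detected, as the label of the constructs has it. Of these, 1 rose, Myog (0.39), 5 fell, among them Myh3 (-2.45) and Ckm (-1.71), and 1 did not pass, and their summed level was 9589 to 11125 CPM in vehicle and 6987 to 7929 CPM with TNF-alpha. Fibroblast markers, of which 4 were tested, had 1 rise, Pdgfra (0.60), and 3 falls, among them Dpt (-5.56) and Pi16 (-5.36). Their summed level was 205 to 243 CPM in vehicle and 100.0 to 140 CPM with TNF-alpha, and Thy1 had at most 4 counts. Of 3 tested cartilage and bone markers 2 rose, Sox9 (1.10) and the scarce Col2a1 (1.37, from a mean of 0.236 to 0.615 CPM). Bglap did not pass (-0.43 ± 0.17), and Acan was near 0. This list summed to 43.4 to 56.5 CPM in vehicle and 90.1 to 117 CPM with TNF-alpha. Most of that was Sox9, with means of 45.7 and 97.8 CPM. Endothelial markers summed to under 1 CPM in every library, with Tie1 at 0. All constructs were made from the C2C12 line, so these genes are given as transcript levels and not as numbers of other cells. How their changes relate to those of the protease and inhibitor genes was not tested.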

How the data were processed

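RNA was measured by polyadenylated RNA sequencing in 6 constructs (stranded kit, paired-end, per the labels' protocols). Values in the table that the authors deposited are estimated counts, with decimals in 20.1% to 21% of the values of a library and in 22 of the 51 genes described, although the design text speaks of integers. The submitters' processing notes name TopHat2 2.1.1, Bowtie2 2.3.5.1, featureCounts of Subread 2.0.0, DESeq2 and the builds mm10 and GRCm38, with no role for each. The counting options, strand among them, were not given in the sources used here, so genes that overlap or share sequence are uncertain. No 2 replicates were duplicates by their counts (chi-square per degree of freedom 23.1 to 70.6).

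The counts were rounded to whole numbers, filtered with filterByExpr and scaled with TMM. They were tested over the whole table with the quasi-likelihood test of edgeR 4.0.16 (R 4.3.3), with robust estimation and group as the only term. The design had assumed whole counts. Of 24421 rows, 3813 were at 0 in every library and 15792 were tested. The biological coefficient of variation was 12.1%, which with 3 constructs a group sets the precision. Standard errors were derived from the F statistic. On simulated counts in which only a small part of the genes was changed, 11% of calls were false. There 42% of 1.5-fold changes were found. Far more genes passed in the real data, so that false share need not hold here. Calls just under the threshold are still taken as less certain. Levels per length divide CPM by the summed exon length in kb (GENCODE M21, GRCm38). As alternatives, libraries were scaled by median ratio or upper quartile, the filter was dropped or set at 1 CPM in 3 libraries, and other choices were the Wald test of DESeq2 1.42.0, voom of limma 3.58.1, no robust estimation, the replicate number as a block, rounding down, longest transcripts, and each library left out.

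Values in every library are given for tested members that passed with at least a 2-fold change and a mean of 1 CPM in a group, for the TIMP genes, and for the 2 highest per length in each role. From each related list the 2 genes with the smallest p in each direction were named. Other marker names given as present, near 0 or at 0, and the neighbours on chromosome 9, were chosen after their values were seen. The members and lists were chosen with earlier results of these data known.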

Additional observations from a re-analysis of the deposited data

How the results depend on the processing

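Over 15 alternatives, 24 of the 31 members that passed kept their call in each one that could be fitted, 7 lost it in at least 1 (Mmp8, Mmp23, Adamts3, Adamts7, Adamtsl1, Timp3 and Timp4), and none of the 31 changed direction. The count that rose ranged from 9 to 14 and the count that fell from 15 to 19, the lowest being without vehicle replicate 1 and without vehicle replicate 2. Leaving out 1 library at a time, 4 members that had not passed changed sign, with log2 fold changes from -0.047 to 0.11 for Adamts1, -0.065 to 0.030 for Adamts13, -0.015 to 0.25 for Mmp17 and -0.082 to 0.027 for Mmp19. Adamts14 passed with DESeq2 (adjusted p = 0.0137), limma-voom (0.0417) and no robust estimation (0.0493). Mmp17, Adamts17 and Timp4 had too few counts for the filter of 1 CPM in 3 libraries and have no value there. With the longest transcript as the length, the share of Mmp2 in vehicle was 60.7%, of Mmp3 3.59% in vehicle and 39.1% with TNF-alpha, of Mmp14 26.7% and 9.53%, of Timp1 29.4% and 56.0%, and of Timp2 57.1% in vehicle, since summed exons and longest transcripts differ in length.

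The replicate numbers of the constructs are shared between the groups, but same-numbered constructs did not deviate together (correlations of 0.0428, -0.0454 and -0.114), so the numbers were not taken as pairs. With the replicate number as a block, 8486 genes passed in place of 8769, and 13 members rose and 19 fell. In that fit Adamts14 (0.00369), Adamts17 (0.0293) and Mmp15 (0.00614) passed, and Mmp8 (0.0989) and Timp3 (0.0707) did not. For the 10 members with too few counts to test, no change could be called at this depth.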
